A study of Mus musculus with 48 samples.

Results

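The mRNAs of the Myc and Max network were followed in mPDAC cells, with and without the nucleolin antagonist N6L, in 2 RNA fractions. The members were the 8 genes Myc, Max, Mnt, Mxd1, Mxd3, Mxd4, Mxi1 and Mlx, chosen by name and matched to their Ensembl identifiers, of 50600 genes in the count tables. All 8 passed the filter on low counts and were among the 13889 genes tested.

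mPDAC is a mouse pancreatic ductal adenocarcinoma cell line, labelled with the genetic background FVB/N x C57BL6 and an age of 8 weeks, and it was the only line sequenced. The treated group received 50 µM N6L, a pseudopeptide that binds nucleolin, for 48 h, and the control group was non-treated (NT), with no vehicle named. There were 3 cultures of each, numbered 1, 2 and 3 with N6L and 1, 2 and 4 without. All cultures were exposed to emetine, an inhibitor of translation elongation, before lysis, and nuclei and mitochondria were removed by centrifugation. Each lysate gave a cytoplasmic library, from an aliquot, and a polysomal library, from the pooled heavy fractions of a sucrose gradient, so that the 12 libraries form 4 groups of 3.

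Myc is a basic helix-loop-helix leucine zipper transcription factor that binds DNA as a heterodimer with Max and activates genes of ribosome biogenesis, nucleotide synthesis and the cell cycle. Max has no activation domain of its own and is the common partner of the network. Mnt, Mxd1, Mxd3, Mxd4 and Mxi1 also dimerize with Max and recruit Sin3 and histone deacetylase corepressors to the same E-box sequence, and thereby oppose Myc. Mlx is a Max-like protein that pairs with the glucose-sensing factors MondoA (Mlxip) and ChREBP (Mlxipl), and also with Mnt and some Mxd proteins. In pancreatic ductal adenocarcinoma Myc is known as a driver of growth downstream of oncogenic Ras.

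The 8 genes are protein coding and lie on 7 chromosomes in the GRCm38 annotation of GENCODE vM21. Myc (ENSMUSG00000022346) runs from 61985391 to 61990374 on chromosome 15, Max (ENSMUSG00000059436) from 76937269 to 76962201 on chromosome 12 and Mlx (ENSMUSG00000017801) from 101087277 to 101092207 on chromosome 11. Among the antagonists, Mnt (ENSMUSG00000000282) lies on chromosome 11 from 74830920 to 74845725, Mxd1 (ENSMUSG00000001156) on chromosome 6 from 86647042 to 86669161 and Mxd3 (ENSMUSG00000021485) on chromosome 13 from 55325168 to 55329823. Mxd4 (ENSMUSG00000037235) lies on chromosome 5 from 34173883 to 34187720 and Mxi1 (ENSMUSG00000025025) on chromosome 19 from 53310518 to 53375810. Exons of Mxd3 overlap those of Prelid1 on the opposite strand (207630 counts over the 12 libraries), and exons of Mlx overlap those of Psmc3ip (8757 counts). The libraries were strand-specific, but the strand setting used in counting is not given in the sources used here. Reads of the opposite gene may therefore be among those of Mxd3 and Mlx.

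Library totals lay between 19519911 and 44972333 counts. Values are given as CPM, the counts of a gene relative to the scaled library total (TMM scaling), and a value is relative to the other mRNAs of its library. In such bulk libraries, fewer cells with an mRNA and less of it per cell cannot be told apart. Of 11 ductal epithelial markers, 9 exceeded 3 CPM in a library, and their sum was 6732 to 10880 CPM across libraries. Among the 11, Epcam (at most 0.301 CPM) and Cftr (at most 1.31 CPM) were near 0. None of 10 fibroblast and stellate, 8 leukocyte or 5 endothelial markers exceeded 3 CPM. The summed endothelial markers were 0.35 to 0.82 CPM in NT cytoplasm and 0.78 to 1.18 CPM in N6L cytoplasm, where Pecam1 (at most 0.53 CPM) rose by 1.93 on the log2 scale (FDR 0.0352), and the part of this in the results was not tested. One of 8 acinar and islet markers, Cela1, was present at 27.6 to 82.7 CPM.

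The E-box CACGTG is the sequence that Myc-Max, Mxd-Max and Mlx dimers bind, and it was searched in the promoters of the network genes themselves. RefSeq promoter windows (GRCm38.p6, from 250 bases before to 50 bases after each annotated start) were found for 7 of the 8 genes, all except Myc, and 4 of the 7 held CACGTG. Over all 27025 genes with a window, 2187 (8.09%) held it, and among the 10092 tested genes with a window 1173 (11.6%) did, although these cover too few of the 13889 tested genes to stand for all of them. CACGTG reads the same on both strands. The 30 bases around each E-box are shown on the strand of the gene with the E-box in capitals. Its first base lies 3 bases before the annotated start of Max (chr12:76962234-76962263, minus strand), 40 before that of Mlx (chr11:101087238-101087267, plus strand), 123 before that of Mnt (chr11:74830789-74830818, plus strand) and 219 before that of Mxd4 (chr5:34187912-34187941, minus strand).
Max: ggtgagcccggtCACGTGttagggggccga
Mlx: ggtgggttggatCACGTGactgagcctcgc
Mnt: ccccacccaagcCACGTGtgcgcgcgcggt
Mxd4: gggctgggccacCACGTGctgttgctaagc

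The promoters of Mnt, Mxd1 and Mxd4 are shown in full because these 3 mRNAs rose together in the cytoplasm, as described below. The 250 bases before the start are given on the strand of the gene, and capitals mark CACGTG and the GC box GGGCGG or its complement CCGCCC, where neighbouring GC boxes can share bases. The windows are chr11:74830674-74830923 (plus strand) for Mnt, chr6:86669160-86669409 (minus strand) for Mxd1 and chr5:34187711-34187960 (minus strand) for Mxd4.
Mnt: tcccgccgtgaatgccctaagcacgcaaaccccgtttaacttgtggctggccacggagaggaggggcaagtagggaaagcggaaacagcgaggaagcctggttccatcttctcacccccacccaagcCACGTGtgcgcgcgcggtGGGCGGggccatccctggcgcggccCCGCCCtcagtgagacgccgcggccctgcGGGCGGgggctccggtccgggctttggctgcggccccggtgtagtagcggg
Mxd1: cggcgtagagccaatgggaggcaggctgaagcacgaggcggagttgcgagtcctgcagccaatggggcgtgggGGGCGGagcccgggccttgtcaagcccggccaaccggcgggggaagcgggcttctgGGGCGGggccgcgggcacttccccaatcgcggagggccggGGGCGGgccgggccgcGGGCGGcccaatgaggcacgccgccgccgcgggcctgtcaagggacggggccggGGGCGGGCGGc
Mxd4: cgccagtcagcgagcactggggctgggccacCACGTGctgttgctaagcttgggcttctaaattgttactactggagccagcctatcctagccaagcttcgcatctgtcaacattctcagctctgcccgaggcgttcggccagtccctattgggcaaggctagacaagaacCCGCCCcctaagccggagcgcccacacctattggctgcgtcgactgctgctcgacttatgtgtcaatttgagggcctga
Mxd1 held 6 GC boxes and no E-box in this stretch, Mnt held 3 GC boxes and Mxd4 held 1. A GC box was found in the windows of 10324 of the 27025 genes (38.2%) and of 6906 of the 10092 tested genes with a window (68.4%), and in those of 5 of the 7 members (71.4%), which is close to the share of tested genes.

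Myc was by far the most abundant mRNA of the network per kilobase of exon. On the RPKM scale, which divides the CPM by the length of all exons of a gene, Myc stood at 304 ± 47.3 in NT cytoplasm, 355 ± 20.5 in N6L cytoplasm, 276 ± 66.3 in NT polysomes and 310 ± 44.5 in N6L polysomes (SD, n = 3 cultures each). Mlx and Max followed in all 4 groups, at 31.7 ± 2.10 and 28.3 ± 2.75 RPKM in NT cytoplasm, where the ranges of the pair overlapped. In the other 3 groups the Mlx cultures all lay above the Max cultures on this scale. That order depends on the length used. All exons of Max span 3598 bases and its longest transcript 1942, against 1999 and 1965 for Mlx. Before division by length, Max was above Mlx in every group (102 against 63.4 CPM in NT cytoplasm). By the longest transcript Max would therefore come before Mlx. On the scale of all exons, Mnt came next after Mlx and Max in each group, with 11.4 ± 1.76 RPKM in NT cytoplasm and 19.1 ± 0.86 in N6L cytoplasm. The order of the antagonists, here and below, also rests on the length of all exons. That length is 8483 bases for Mxd4 and 4627 for Mnt, whose longest transcripts have 4627 and 4590.

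The 4 remaining antagonists lay between 4.77 and 11.7 RPKM on average, and their order differed between groups. In NT cytoplasm the order was Mxi1 (7.72 ± 0.60), Mxd3 (7.53 ± 1.68), Mxd1 (6.07 ± 1.82) and Mxd4 (4.84 ± 0.93), and each neighbour overlapped with the next. In N6L cytoplasm Mxi1 (10.1 ± 0.47) and Mxd1 (9.89 ± 0.81) overlapped, while Mxd4 (8.61 ± 0.36) and Mxd3 (4.77 ± 0.45) lay apart from their neighbours. Mxd3 was therefore the lowest mRNA of the network in N6L cytoplasm, and Mxd4 the lowest in both NT groups, with 5.53 ± 1.44 RPKM in NT polysomes. In N6L polysomes the lowest was Mxi1 (8.78 ± 1.01), and all 4 antagonists overlapped with their neighbours.

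**Figure D1:**
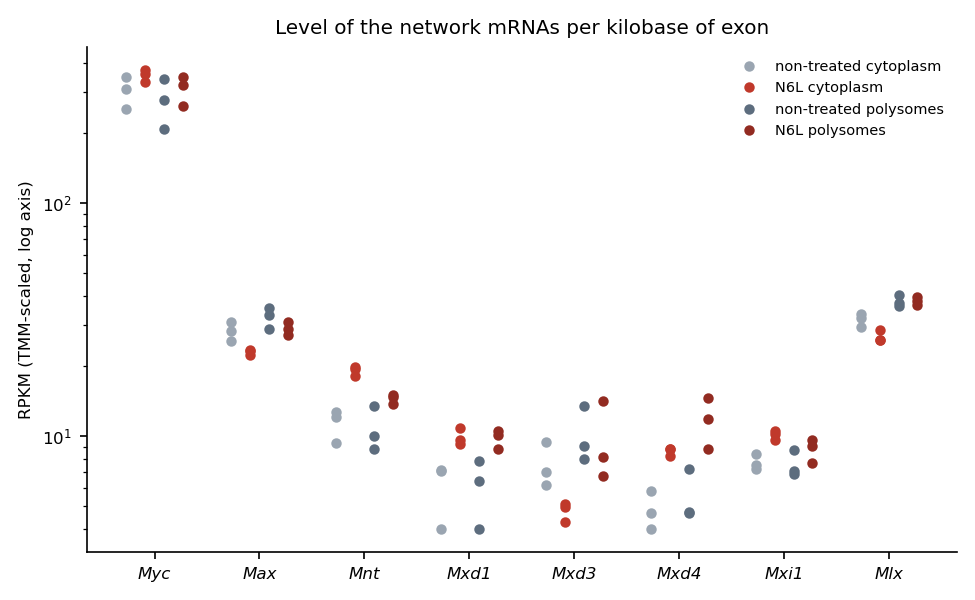
Level of the 8 network mRNAs in RPKM (TMM-scaled, log axis), 1 point per culture and 4 colours for the groups. Myc lies at about 208 to 374 RPKM in all libraries, Mlx and Max at 22.3 to 40.3, and the other 5 mRNAs below 20 RPKM.

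Myc was compared with its partner and its antagonists within each library. The Myc-to-Max ratio on the RPKM scale was 9.94, 12.3 and 9.98 in NT cytoplasm of cultures 1, 2 and 4 and 15.3, 14.4 and 16.8 in N6L cytoplasm of cultures 1, 2 and 3. All 3 N6L cultures lay above the NT cultures in that fraction, with means of 15.5 ± 1.21 and 10.7 ± 1.37. In polysomes the ratio was 8.44 ± 1.62 without and 10.8 ± 2.21 with N6L, and the cultures overlapped. The size of the ratio depended on the length used, since with the longest transcript in place of all exons it was 6.74 in NT cytoplasm.

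The 5 antagonists added together gave 37.5 ± 2.91 RPKM in NT cytoplasm and 52.5 ± 1.52 in N6L cytoplasm. The ratio of Myc to this sum was 7.74, 9.09 and 7.44 in NT cytoplasm and 6.63, 6.53 and 7.14 in N6L cytoplasm, and all N6L cultures lay below the NT cultures. In polysomes the sum was 40.1 ± 3.06 and 54.5 ± 6.19 RPKM, and Myc exceeded it 6.83 ± 1.19-fold without and 5.79 ± 1.41-fold with N6L, with overlap. By the length of all exons, Myc mRNA was thus in clear excess over the summed antagonist mRNAs in each of the 12 libraries, between 4.24-fold and 9.09-fold. All exons and the longest transcript span 2717 and 2338 bases for Myc and 4627 and 4590 for Mnt. They span 7072 and 4666 for Mxd1, 2369 and 1742 for Mxd3, 8483 and 4627 for Mxd4 and 6823 and 5036 for Mxi1. The folds by the longest transcript were not computed.

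In the cytoplasm Myc mRNA did not change past the limit and its cultures overlapped between treatments, while 3 of the 5 antagonists rose. Mxd4 rose 1.78-fold, Mnt 1.68-fold and Mxd1 1.63-fold. No member fell past the limit in the main edgeR fit, while DESeq2 called Max, Mxd3 and Mlx lower. This comparison asked which cytoplasmic mRNA levels differed after 48 h of N6L, and a call is an FDR under 0.05 in edgeR's quasi-likelihood test over all 13889 genes. The count of 3 called members of 8 stands beside 28.3% of all tested genes called in this comparison (14.5% higher and 13.8% lower), so 3 of 8 is close to the background. The median log2 change was 0.31 over the 8 members and 0.04 over all genes.

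Myc stood at 838, 949 and 693 CPM in NT cultures 1, 2 and 4 and at 974, 906 and 1016 CPM in N6L cultures 1, 2 and 3. The groups overlapped, because NT culture 2 exceeded N6L culture 2, and NT culture 4 was the lowest of the 6. The log2 change of Myc was 0.22 (SE 0.19, 95% interval -0.18 to 0.62, FDR 0.377).

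Max, the obligate partner, was at 112, 102 and 91.9 CPM in NT cytoplasm and at 84.4, 83.4 and 80.3 CPM with N6L. All N6L cultures lay below all NT cultures. The log2 change of -0.30 (SE 0.14, 95% interval -0.59 to -0.01) had an FDR of 0.109 and did not pass. It passed in 5 of the 18 settings run. Among these were DESeq2 (-0.34, FDR 0.0353), the correction for exon length and GC content (-0.36, FDR 0.0295) and only the groups compared (-0.34, FDR 0.0411). With a single culture left out it passed in 0 cases, and with library totals the change was -0.16 (FDR 0.413).

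Mnt, the most widely expressed antagonist, was at 58.9, 55.6 and 43.4 CPM in NT cytoplasm and at 90.1, 84.0 and 91.5 CPM with N6L. The groups lay apart by more than the range within either. The log2 change was 0.75 (SE 0.17, FDR 0.00768). Without N6L culture 2 the change was 0.73 with an FDR of 0.0510, and it passed when any other single culture was left out.

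Mxd1, which is known to rise as cells leave the cycle and differentiate, was at 50.2, 50.5 and 28.1 CPM in NT cytoplasm and at 76.4, 68.1 and 65.4 CPM with N6L. NT culture 4 stood well below the other NT cultures, and the groups did not overlap. The log2 change was 0.70 (SE 0.25, FDR 0.0456), the weakest of the 3 calls. It was 0.45 (FDR 0.0773) without NT culture 4, 0.83 (FDR 0.0720) without NT culture 1, and the omission of N6L culture 1, 2 or 3 gave 0.64, 0.67 and 0.75 (FDR 0.117, 0.154 and 0.0581), so that leaving out NT culture 2 was the only omission under which the call held.

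Mxd4 was at 39.8, 49.5 and 33.8 CPM in NT cytoplasm and at 69.6, 74.9 and 74.7 CPM with N6L. The N6L cultures lay close together and all above the NT cultures. The log2 change was 0.83 (SE 0.22, FDR 0.0136). The call was lost without NT culture 1 (0.81, FDR 0.0523), NT culture 4 (0.68, FDR 0.0614) or N6L culture 2 (0.76, FDR 0.0858). With each library corrected for exon length and GC content, the changes of Mxd4 and Mxd1 were 0.47 (FDR 0.134) and 0.41 (FDR 0.147), and neither passed.

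Mxi1 was at 57.3, 49.4 and 51.3 CPM without and at 71.9, 69.6 and 65.6 CPM with N6L. Its groups lay apart, with a log2 change of 0.39 (SE 0.15, FDR 0.0620) that missed the limit. It passed in 4 of the 18 settings run, and with the correction for exon length and GC content its FDR was 0.773. Mxd3, the member of the Mxd group linked to proliferating cells in S phase, was at 16.5, 14.7 and 22.3 CPM without and at 12.1, 10.1 and 11.7 CPM with N6L. It was the antagonist whose N6L cultures all lay below the NT cultures (log2 change -0.66, SE 0.27, FDR 0.0830). Mlx was at 67.1, 64.3 and 58.9 CPM without and at 57.0, 51.7 and 51.5 CPM with N6L, also without overlap (-0.25, SE 0.13, FDR 0.155). With the same correction the FDR was 0.0625 for Mxd3 and 0.530 for Mlx.

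The 3 cultures of each treatment did not overlap for 7 of the 8 members, 4 with N6L above and 3 with N6L below, where 54.9% of all tested genes did not overlap (29.3% above and 25.6% below). An unadjusted p under 0.05 was reached by 6 members, and DESeq2 called 6. The culture with the lowest NT value was culture 4 for Myc, Max, Mnt, Mxd1, Mxd4 and Mlx. Scaling by library totals moved the median change of all genes from 0.04 to 0.19 and the share of calls that were higher from 51.2% to 65.5%, and the direction of none of the 8 members changed.

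**Figure D2:**
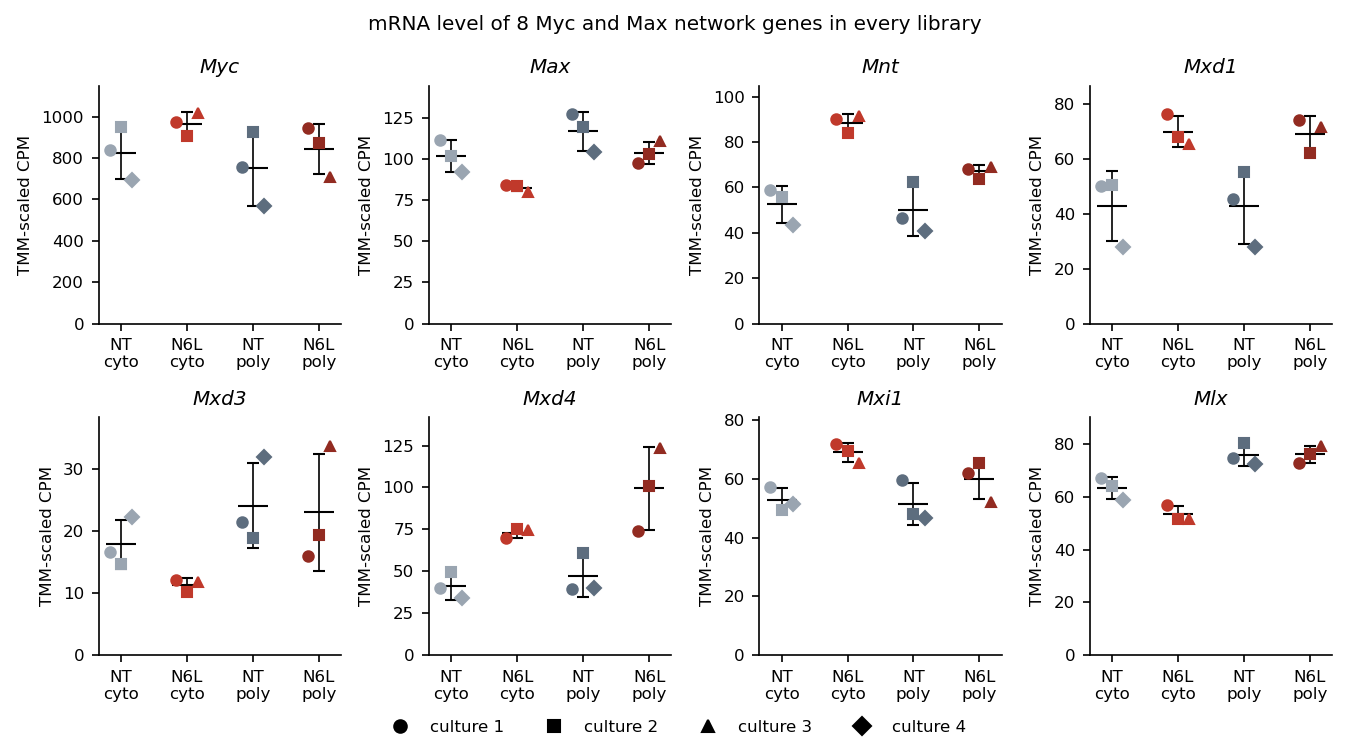
TMM-scaled CPM of the 8 network mRNAs in each of the 12 libraries, with a symbol for each culture and a black bar for the mean and SD of 3 cultures (NT, non-treated; cyto, cytoplasm; poly, polysomes). Mnt, Mxd1 and Mxd4 lie higher in N6L than in NT cytoplasm without overlap, while Myc overlaps between the treatments in both fractions.

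In the polysomes Mxd4 was the member that passed the limit, and its mRNA was 2.12-fold higher with N6L. Mxd1 and Mnt also had all 3 N6L cultures above the NT cultures, at 1.61-fold and 1.34-fold, and did not pass. This comparison asked which mRNAs changed in the pool loaded with several ribosomes. The 1 called member of 8 stands beside 9.67% of all tested genes called (6.01% higher and 3.66% lower), and the median log2 change was 0.19 over the members and 0.00 over all genes.

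Mxd4 was at 39.6, 61.0 and 40.2 CPM in NT polysomes of cultures 1, 2 and 4 and at 74.3, 101 and 124 CPM in N6L polysomes of cultures 1, 2 and 3. NT culture 2 was the highest NT value and still below the lowest N6L culture. The log2 change was 1.08 (SE 0.22, 95% interval 0.62 to 1.55, FDR 0.00917). It was 0.98 (FDR 0.0782) without NT culture 1 and 1.08 (FDR 0.0751) without N6L culture 2, and it passed without any other single culture.

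Mxd1 was at 45.4, 55.4 and 28.1 CPM in NT polysomes and at 74.1, 62.2 and 71.7 CPM with N6L. NT culture 4 was again the lowest, and the groups lay apart. The log2 change was 0.69 (SE 0.25, FDR 0.0896), almost the same size as in the cytoplasm. Mnt was at 46.5, 62.5 and 40.8 CPM without and at 68.3, 63.7 and 69.3 CPM with N6L. Here NT culture 2 came close to N6L culture 2, and the log2 change was 0.42 (SE 0.17, FDR 0.131).

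Myc was at 757, 926 and 566 CPM in NT polysomes and at 944, 874 and 709 CPM with N6L. The groups overlapped, with the lowest values in NT culture 4 and N6L culture 3. Its log2 change was 0.17 (SE 0.19, 95% interval -0.23 to 0.57, FDR 0.604). Max was at 128, 120 and 104 CPM without and at 97.4, 103 and 111 CPM with N6L, with overlap (-0.17, SE 0.14, FDR 0.451).

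Mxi1 was at 59.5, 48.2 and 46.7 CPM without and at 61.9, 65.6 and 52.2 CPM with N6L, which overlapped (log2 change 0.22, FDR 0.370). Mxd3 was at 21.4, 18.9 and 31.9 CPM without and at 15.9, 19.3 and 33.6 CPM with N6L. Both treatments held 1 culture far above the others, NT culture 4 and N6L culture 3, and the change of -0.07 had a 95% interval of -0.65 to 0.51. Mlx was at 74.9, 80.5 and 72.4 CPM without and at 73.1, 76.2 and 79.4 CPM with N6L, the narrowest interval of the 8 around a change of 0.01 (-0.27 to 0.28).

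Non-overlap was found for 3 members, all with N6L above, beside 25.6% of all genes (13.7% above). An unadjusted p under 0.05 was reached by 3 members, and DESeq2 called 1. Over all 13889 tested genes these counts were 3684 and 2034.

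**Figure D3:**
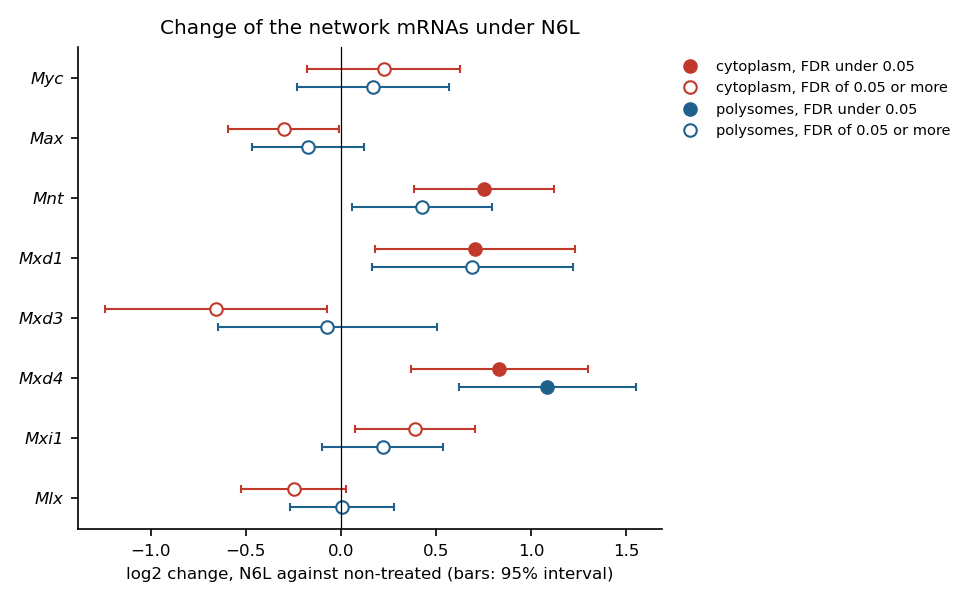
Log2 change of each network mRNA with N6L against non-treated cultures in the cytoplasm (red) and the polysomes (blue), with 95% intervals from edgeR. Filled points passed an FDR of 0.05 and are Mnt (0.75), Mxd1 (0.70) and Mxd4 (0.83) in the cytoplasm and Mxd4 (1.08) in the polysomes.

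The polysome-to-cytoplasm ratio describes how far an mRNA is enriched in the polysomal library relative to other mRNAs. In non-treated cultures the fitted ratios of the network mRNAs ran from 0.907 for Myc to 1.35 for Mxd3. The edgeR test called 0 of the 8, where 0.209% of all genes were called. None had an unadjusted p under 0.05, and DESeq2 also called 0, beside 1855 and 281 of all 13889 tested genes. The log2 difference was largest for Mxd3 (0.44, 95% interval -0.14 to 1.02) and Mlx (0.26, -0.02 to 0.53), followed by Max (0.20), Mxd4 (0.19), Mxd1 (-0.00), Mxi1 (-0.03), Mnt (-0.08) and Myc (-0.14). For Mlx alone the 3 polysomal libraries lay above the 3 cytoplasmic ones, beside 22.4% of all genes without overlap (9.59% with polysomes above).

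With N6L, Mxd3 and Mlx were higher in the polysomal than in the cytoplasmic libraries. Mxd3 was 2.03-fold and Mlx 1.43-fold higher, and no member was called lower. The 2 called members of 8 stand beside 39% of all tested genes called (18.4% higher and 20.6% lower).

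For Mxd3 the log2 ratio within a culture was 0.40, 0.93 and 1.51 in N6L cultures 1, 2 and 3 and 0.37, 0.36 and 0.52 in NT cultures 1, 2 and 4. The N6L cultures were spread widely, and culture 1 lay within the NT range. The fitted difference with N6L was 1.02 (SE 0.27, FDR 0.0119). It was 0.67 (FDR 0.106) without N6L culture 3 and 1.08 (FDR 0.0599) without N6L culture 2, and 0.50 (FDR 0.0567) with the correction for exon length and GC content.

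For Mlx the log2 ratio was 0.36, 0.56 and 0.62 in N6L cultures and 0.16, 0.32 and 0.30 in NT cultures. All N6L ratios lay above all NT ratios, by a narrow gap. The fitted difference with N6L was 0.51 (SE 0.13, FDR 0.00929). It was 0.46 (FDR 0.0585) without N6L culture 3 and 0.51 (FDR 0.0789) without N6L culture 2. With the correction for exon length and GC content it was 0.18 (FDR 0.301), which ended the call.

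For Mnt the log2 ratio was -0.40 in each of the 3 N6L cultures, against -0.34, 0.17 and -0.09 in NT cultures. The N6L cultures agreed to the second decimal, and all lay below the NT cultures. The fitted difference with N6L was -0.40 (SE 0.17, FDR 0.0753), and it passed (-0.40, FDR 0.0187) when both libraries of each lysate were paired by a block term.

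Max had log2 ratios of 0.21, 0.31 and 0.47 in N6L and of 0.19, 0.23 and 0.18 in NT cultures. Only N6L culture 1 overlapped with the NT cultures. The fitted difference with N6L was 0.33 (SE 0.14, FDR 0.0692) and had an FDR of 0.0215 with the block. Mxd4 had log2 ratios of 0.09, 0.43 and 0.73 in N6L and of -0.01, 0.30 and 0.25 in NT cultures, with a fitted difference of 0.45 (FDR 0.110) that passed with the block (0.42, FDR 0.0287). The block thus raised the number of called members from 2 to 5. Over all 13889 genes, calls in this comparison ranged from 1207 to 7460 across the settings, so this rise is not read as particular to the members.

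Myc, Mxi1 and Mxd1 did not pass without the block or with the block alone. With the block and the correction for exon length and GC content together, Myc passed at -0.55 (FDR 0.0102) and Mxi1 passed in the opposite direction at 0.29 (FDR 0.0456). Without these terms, the differences of Myc, Mxi1 and Mxd1 with N6L were -0.20 (95% interval -0.60 to 0.20), -0.20 (-0.52 to 0.11) and -0.01 (-0.53 to 0.51). For Myc the log2 ratio was -0.05, -0.05 and -0.52 in N6L cultures 1, 2 and 3, and culture 3 stood apart. Without N6L culture 2 or 3 no member was called, and without NT culture 4, which enters through the shared estimate of the spread, 4 were. An unadjusted p under 0.05 was reached by 4 members, beside 6894 of all 13889 tested genes, and DESeq2 called 3 members. The groups of libraries did not overlap for 5 members, with polysomes above for 3 and below for 2. This stands beside 56.9% of all genes (28.4% above and 28.5% below). Scaling by library totals moved the median of all genes from 0.03 to -0.11 and the share of calls that were higher from 47.3% to 36.1%, with Mxd3 (0.87) and Mlx (0.38) still called and Mnt now called lower (-0.54, FDR 0.0428).

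**Figure D4:**
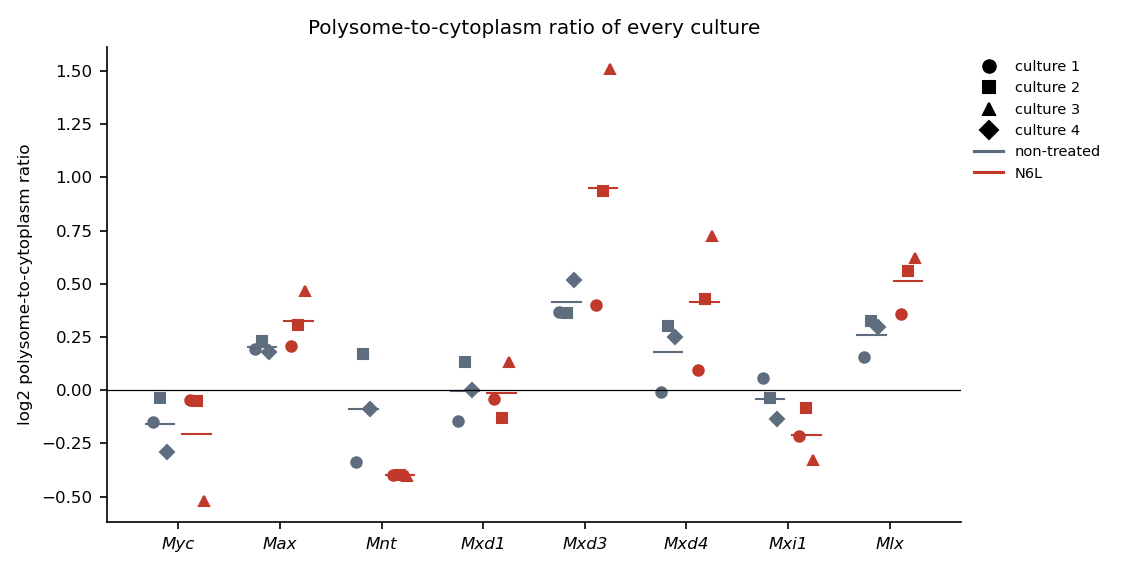
Log2 polysome-to-cytoplasm ratio of each network mRNA in every culture, with non-treated cultures in grey, N6L cultures in red, a symbol per culture and a line at the mean. Mxd3 spreads from 0.40 to 1.51 with N6L, and for Mlx and Mnt the cultures of the 2 treatments lie apart.

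The log2 translational index (TI) is the ratio of N6L cultures minus that of NT cultures, tested as 1 contrast. No member passed the limit in edgeR's quasi-likelihood test, none had an unadjusted p under 0.05 and DESeq2 called 0, as 0% of all genes passed it, with a smallest FDR of 0.555 and 1074 of 13889 genes at an unadjusted p under 0.05. The TI was highest for Mxd3 (0.59, SE 0.38, 95% interval -0.23 to 1.41) and lowest for Mnt (-0.33, SE 0.24, interval -0.84 to 0.19). Mlx (0.25, interval -0.13 to 0.64), Mxd4 (0.25, -0.40 to 0.90) and Max (0.13, -0.29 to 0.54) lay above 0. Mxd1 (-0.01), Myc (-0.06, -0.62 to 0.51) and Mxi1 (-0.17) lay at or below it. For Mlx the culture ratios were all above and for Mnt all below those of NT cultures, beside 29.7% of all genes without overlap (15.3% above and 14.4% below). The polysome-to-cytoplasm ratios of Mlx, Mxd3 and Mnt are therefore not shown to differ between treatments.

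The genes that Myc is known to activate were lower with N6L more often than higher, although Myc mRNA itself did not change past the limit. Of 66 such genes, all tested, 24 fell and 1 rose in the cytoplasm, with 13.8% and 14.5% of all genes called in those directions. The median log2 change was -0.33 over this list and 0.04 over all genes. In the polysomes 7 fell and edgeR called 0 higher, beside 3.66% and 6.01% of all genes. There 29 of the 66 had an unadjusted p under 0.05 in either direction and DESeq2 called 16. Over all 13889 tested genes these counts were 3684 and 2034. The median in the polysomes was -0.35 against 0.00 over all genes. With library totals 15 fell in the cytoplasm, and the omission of NT culture 1, NT culture 4 or N6L culture 2 left 13, 12 or 9. In the polysomes the omission of NT culture 1, 2 or 4 left 0, 4 or 2, that of N6L culture 1 or 2 gave 16 or 0, the offset for length and GC content gave 28, and a fit of only the groups compared gave 1. The median stayed below 0 under every setting run, between -0.38 and -0.18 in the cytoplasm and between -0.38 and -0.25 in the polysomes.

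Among these genes Dctpp1, a pyrophosphatase that clears modified nucleotides, fell by 1.29 on the log2 scale in the cytoplasm, from 149 ± 52.5 to 61.1 ± 4.04 CPM (SD, n = 3, FDR 0.00657). Nme1, a nucleoside diphosphate kinase, fell by 1.27 (223 ± 70.2 to 92.7 ± 3.35 CPM, FDR 0.00394), and Hspe1, a mitochondrial chaperonin, fell by 1.04 (FDR 0.00271). The gene that rose was Tert, the catalytic subunit of telomerase (1.20, FDR 0.0183), named after its value was seen. In the polysomes the largest falls among called genes were those of Tcof1 (-1.27, FDR 0.0133) and Nolc1 (-0.88, FDR 0.0240), nucleolar proteins of rRNA synthesis, and of Cad (-1.01, FDR 0.0398), which starts pyrimidine synthesis. Ncl, which encodes the target of N6L and belongs to this list, is also named outside the naming rule: its log2 change was -0.11 (FDR 0.812) in the cytoplasm and -0.80 (FDR 0.122) in the polysomes. CACGTG was found in the promoter window of 15 of the 55 listed genes that had one (27.3%). This stands beside 8.09% of all genes with a window and 11.6% of tested genes with one. Among the genes known to be repressed by Myc, it was found in 3 of the 11 with a window, the same share (27.3%).

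Of 16 genes known to be repressed by Myc, 15 were tested, and 6 rose and 2 fell in the cytoplasm, beside 14.5% and 13.8% of all genes. Among called genes of the list with a mean of at least 10 CPM, the largest rises were those of Tnfaip3, an inhibitor of NF-kappaB (2.04, FDR 0.00222), Gadd45b, a stress-response gene (1.33, FDR 0.00328), and Klf4 (0.90, FDR 0.00577). Below that level, Vdr, the vitamin D receptor, rose by 1.74 (FDR 0.000789) and is named after its value was seen. Gadd45a, the classical growth-arrest gene of the list, fell by 1.13 on the log2 scale, from 290 ± 32.7 to 133 ± 3.74 CPM (FDR 0.000847), and Cdkn2b, an inhibitor of Cdk4, fell by 0.45 (FDR 0.0410). When any culture other than NT culture 4 was left out, 1 fell in place of 2. In the polysomes 5 rose and 1 fell, beside 6.01% and 3.66% of all genes. Gadd45b (1.80), Tnfaip3 (1.42) and Clu (1.27) led those that rose, and Gadd45a fell by 1.01 (FDR 0.00223). The median was 0.19 in the cytoplasm and 0.51 in the polysomes. In the cytoplasm it ran from 0.06 to 0.45 over the omissions of a single culture, the extremes being those of N6L culture 1 and N6L culture 3. In the polysomes the omission of NT culture 1, N6L culture 1 or N6L culture 2 left 2, 3 or 2 that rose.

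**Figure D5:**
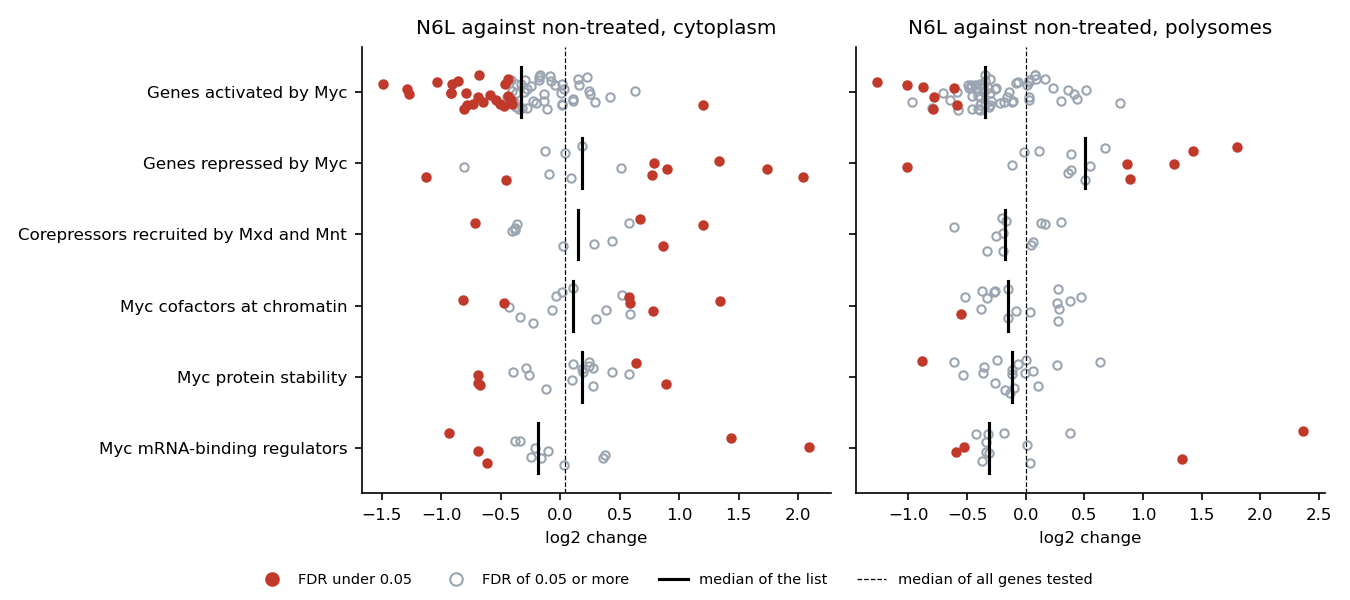
Log2 change with N6L of every tested gene of 6 lists around the network, in the cytoplasm and the polysomes, with red points for an FDR under 0.05, a bar for the median of the list and a dashed line for that of all genes tested. Genes activated by Myc have a median of -0.33 in the cytoplasm and -0.35 in the polysomes, and those repressed by Myc one of 0.19 and 0.51.

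Of 5 other proteins of the network, 1 rose in the cytoplasm, beside 14.5% of all genes called higher there. In the polysomes edgeR called 0, beside 9.67% of all genes. There 0 had an unadjusted p under 0.05 and DESeq2 called 0, beside 3684 and 2034 of all 13889 tested genes. The paralogs Mycn (1.07 ± 0.22 CPM in NT cytoplasm) and Mycl (1.13 ± 0.19) and the Mlx partner Mlxipl (1.05 ± 0.61) were near the lowest levels tested, with changes between -0.18 and 0.51 in both fractions and FDR values of 0.335 and above. Mlxip, the partner MondoA, rose in the cytoplasm from 35.8 ± 4.71 to 55.6 ± 5.30 CPM (log2 0.63, FDR 0.0150), and was at 34.1 ± 3.33 and 37.1 ± 6.52 CPM in the polysomes (0.12, FDR 0.680). The Max partner Mga had a change of 0.89 (FDR 0.0512) in the cytoplasm and of -0.11 (FDR 0.862) in the polysomes. With N6L both Mga (-1.67, FDR 0.00464) and Mlxip (-0.58, FDR 0.0165) were lower in polysomal than in cytoplasmic libraries, beside 20.6% of all genes called lower. Neither passed for the TI (FDR 0.555 each).

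Txnip, an inhibitor of glucose uptake and the best known MondoA-Mlx target, rose in both fractions. It was at 254 ± 80.5 CPM in NT and 915 ± 179 CPM in N6L cytoplasm (log2 1.85, FDR 0.00155) and at 303 ± 106 and 949 ± 260 CPM in the polysomes (1.65, FDR 0.00479). Arrdc4, the other listed target, was at 5.84 ± 5.05 and 5.59 ± 0.74 CPM in the cytoplasm, with a change of -0.05 (FDR 0.954).

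Of 12 corepressor genes that Mxd proteins and Mnt recruit, 3 rose and 1 fell in the cytoplasm, a share near the 28.3% of all tested genes called there. Arid4b (1.20, FDR 0.0164), a Sin3 subunit, and the corepressor Ncor1 (0.86, FDR 0.0363) were among those that rose, while the scaffold Sin3b fell by 0.72 (FDR 0.0125). In the polysomes edgeR called 0 of the 12, beside 9.67% of all genes. There 1 had an unadjusted p under 0.05 and DESeq2 called 1, beside 3684 and 2034 of all 13889 tested genes. Of 17 cofactors of Myc at chromatin, 4 rose and 2 fell in the cytoplasm, again near the 28.3% of all genes. Those that rose were led by the acetyltransferase Ep300 (1.34, FDR 0.0117), Hcfc1 (0.78, FDR 0.0177) and Ccnt1 (0.58, FDR 0.0469). The helicase Ruvbl2 (-0.82, FDR 0.00259) and the acetyltransferase Kat2a (-0.47, FDR 0.0399) fell. Ruvbl2 also fell in the polysomes (-0.55, FDR 0.0315), as 1 of the 17, beside 9.67% of all genes called there.

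Myc protein is short-lived, and 19 genes that control its turnover were read as mRNAs. In the cytoplasm 2 rose and 3 fell, near the 28.3% of all genes called. The ubiquitin ligase Fbxo32 (0.89, FDR 0.0101) and the deubiquitinase Usp28 (0.64, FDR 0.0394) rose. Of the 3 that fell, Stub1 changed by -0.69 (FDR 0.0316) and Set, an inhibitor of the phosphatase PP2A, by -0.68 (FDR 0.00667). Set was the only one of the 19 called in the polysomes, where it fell by 0.89 (FDR 0.00447), beside 9.67% of all genes called there.

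Of 14 RNA-binding proteins linked to Myc mRNA, Zfp36 (tristetraprolin) and Zfp36l1, which promote decay of mRNAs with AU-rich elements, rose in both fractions. Zfp36 went from 118 ± 32.9 to 503 ± 18.3 CPM in the cytoplasm (2.09, FDR 0.000507) and rose by 2.37 in the polysomes (FDR 0.000511). Zfp36l1 rose by 1.43 (FDR 0.00172) and 1.34 (FDR 0.00447). The cold-shock protein Ybx1 fell by 0.94 in the cytoplasm (FDR 0.00317) and by 0.59 in the polysomes (FDR 0.0478), and Pcbp2 by 0.61 (FDR 0.00660) and 0.52 (FDR 0.0292). Pcbp1 fell in the cytoplasm (-0.69, FDR 0.00657), which makes 2 higher and 3 lower of 14 there and 2 and 2 in the polysomes, beside 28.3% and 9.67% of all genes called in either direction.

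The pattern of each member over the 12 libraries was compared with those of 8959 genes of at least 10 CPM by Pearson correlation of log2 CPM, as a description only, since the libraries share cultures and treatments. The closest genes were Ptpra (0.945) and Vegfa (0.939) for Myc, Rab28 (0.968) for Max and Bub3 (0.959) for Mlx. They were Stk35 (0.974) for Mnt, Pip5k1a (0.983) for Mxd1, Prdx5 (0.992) for Mxd3, Ticam1 (0.992) for Mxd4 and Gas2 (0.937) for Mxi1. Within the network, Mnt and Mxd1 were the most alike (0.886), followed by Max and Mlx (0.871) and by Mxd1 and Mxd4 (0.805). Mxd3 ran opposite to Myc (-0.845), to Mxi1 (-0.696) and to Mnt (-0.691), and beside Mlx (0.729). The mRNAs thus fell on both sides of Mnt. Mxd1, Myc (0.766), Mxi1 (0.730) and Mxd4 (0.706) were positively and Max, Mxd3 and Mlx negatively correlated with Mnt. Mxd4 stood at -0.10 with Mxd3.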

How the data were processed

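The authors prepared poly(A)-selected strand-specific libraries, used STAR for alignment (build mm10 per the labels) and HTSeq 0.5.3 for counting, and deposited raw counts per gene for 4 technical replicates of each of 12 libraries (48 count tables). For the annotation and the strand setting, the methods name none (not given in the sources used here). Technical replicates were summed (chi-square per degree of freedom 1.02 to 1.04). In the labels, 3 technical replicates of the N6L cytoplasm of culture 2 name both culture 1 and culture 2. Symbols were matched to GENCODE vM21 (50376 of 50600 genes).

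The counts were filtered (filterByExpr, 13889 genes), TMM-scaled, and tested by edgeR 4.0.16 (R 4.3.3) with its quasi-likelihood test on 4 group means without a block, with Benjamini-Hochberg adjustment over all genes and an FDR limit of 0.05. Levels are TMM-scaled CPM, RPKM on the union of exons, and log2 ratios with a prior count of 2. The scripts were tested on simulated data. P-values rest on a spread between cultures of a single cell line that is estimated over all 12 libraries at once. Without a block, both libraries of a lysate are treated as independent.

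Both libraries of a culture come from the same lysate and are paired by design. Their deviations correlated by 0.364, 0.452 and 0.645 in NT cultures and by 0.0368, 0.199 and 0.229 in N6L cultures. Alternatives included DESeq2 1.42.0, other scalings and filters, technical replicate a alone, blocks, each culture left out and an offset for length and GC content.

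Genes named are the 8 members, every gene of lists of up to 5 genes, up to 3 called genes with the largest rise and fall of longer lists (mean of at least 10 CPM) and the genes closest to each member. Some genes under this rule are not reported here. The members and lists were chosen with earlier results of these data known.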

Additional observations from a re-analysis of the deposited data

How the results depend on the processing

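Of the members' values under the other settings, 107 kept direction and side of the limit in the cytoplasm (29 changed side, 0 direction), 117 in the polysomes (13 reversed, 6 changed side), 125 for the NT ratio (11 reversed), 106 for the N6L ratio (9 reversed, 21 changed side) and 116 for the TI (12 reversed). The causes were not tested. The number of members called in the cytoplasm was 3, and 6 with DESeq2, with only the groups compared and with a replicate block by number, a number that pairs nothing by design (correlations of 0.228, 0.0455, 0.296 and 0.00756). In the polysomes it was 1, and 2 without a filter, 2 with the length and GC offset and 3 with that block and the offset. For the N6L ratio it was 2, and 1 without a filter, 5 with the culture block and 6 with culture block and offset. Leaving out a culture gave 0 to 3, 0 to 1 and 0 to 4. The Myc-to-Max ratio of 10.7 was 6.74 with the longest transcript. The culture block changed no other call of a member.

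The log2 values that reversed were as follows. In the polysomes Myc was -0.016 with number block and offset, and Mxd3 was 0.0039 with library totals and -0.45 to 0.20 with a culture left out. Mlx there was -0.011 with RLE, -0.012 with DESeq2, -0.019 with the offset, -0.039 with the number block, -0.082 with both, and -0.024 to 0.050 with a culture left out. For the NT ratio Mxd1 was 0.0049 with RLE, 0.011 without a filter, 0.0020 with at least 10 counts in every library, 0.0055 with DESeq2, 0.031 with technical replicate a alone, 0.036 with the offset, 0.037 with culture block and offset, and -0.096 to 0.085 with a culture left out. Mxi1 was 0.11 and 0.12 with the offset, without and with the block, and Mnt was -0.23 to 0.061 with a culture left out. For the N6L ratio Mxd1 was 0.012 with RLE and DESeq2, 0.26 with the offset, without and with the block, and -0.083 to 0.061 with a culture left out, and Mxi1 was 0.29 with the offset, without and with the block. For the TI Mxd1 was 0.0075 with RLE, 0.0068 with DESeq2, 0.23 and 0.22 with the offset, without and with the block, and -0.10 to 0.091 with a culture left out. Mxi1 was 0.18 and 0.17 with the offset, and Myc was -0.14 to 0.093 with a culture left out.

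Over all genes, calls ranged from 1307 to 5648 in the cytoplasm (3935 as reported), from 146 to 2945 in the polysomes (1343), from 0 to 759 for the NT ratio (29), from 1207 to 7460 for the N6L ratio (5415) and from 0 to 114 for the TI (0). The share of calls that were higher was 51.2% in the cytoplasm and 40.7% with the offset, 62.2% in the polysomes, 77.6% with library totals and 45.3% with the offset, and 47.3% for the N6L ratio and 57.7% with the offset. The 3 cultures a group limit the precision to the intervals given.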
